A study of Mus musculus with 40 samples.

Results

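The response of wild-type mouse embryonic stem cells to all-trans retinoic acid (RA) was read from 4 RNA-seq libraries of the 40 samples in the series, 8 of which are RNA. Of these 4, 2 came from RA-treated and 2 from untreated cells. They were chosen by their titles and genotype labels, and their RPKM values (read density scaled by transcript length and mapped reads, which allow levels of different genes to be compared) were joined by symbol. This gave 23228 genes found in every file, of which 13198 reached 1 RPKM in at least 2 of the 8 RNA libraries and were tested.

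The cells had a mixed C57BL/6 background and wild-type GLP (Ehmt1). They were kept on feeder cells in serum medium with the cytokine LIF and then taken through 2 passages without feeders in 2i medium, the inhibitor-based medium that holds stem cells in a naive state. In the treated group 1 µM RA was added while LIF was removed, so effects of RA and of LIF withdrawal cannot be told apart, and the labels do not state how long treatment lasted. The other 4 RNA libraries, 2 untreated and 2 with RA under the same protocol, were from cells homozygous for the GLP 3A mutation of GLP, an H3K9 methyltransferase. They enter the shared estimate of spread and 1 comparison near the end. Labels of matching chromatin samples describe gene targeting in R1 embryonic stem cells and mice bred from targeted clones, without naming the line that gave the RNA. Nothing in the labels says that replicates were separate cultures, so the p-values measure the spread between these libraries, which may be technical.

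RA is made from vitamin A by dehydrogenases, carried in the cytoplasm by Crabp proteins and broken down by the Cyp26 enzymes. In the nucleus it binds RAR and RXR receptors that sit on paired hexamer sequences near target genes such as Hox genes, Rarb and Cyp26a1. In the embryo it patterns the trunk and hindbrain, and in stem cell culture it drives exit from pluripotency towards several lineages, depending on dose, medium and cell contact.

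Below, paired values are replicate 1 and then replicate 2, and each "log2 difference" is RA minus untreated on the scale of log2(RPKM + 1), ± its standard error from limma. Values after "rose by" and "fell by" are such differences. The added 1 understates changes of genes with low values. A gene was called when its Benjamini-Hochberg adjusted p over all 13198 genes was under 0.05, in a limma fit over the 8 RNA libraries. "Rose" and "fell" are used of called genes only.

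Both sequences shown here hold the paired hexamers through which RA receptors act, and their genes are among the clearest responders. The hexamer AGGTCA was taken with its common variant forms, which were AGTTCA in Rarb-type sites, then GGTTCA as a further form that such sites hold, and finally GGGTCA where the first base differs. A direct repeat of any of these with 5 bases between the copies (DR5) was searched on both strands of 32851 mouse promoter windows from RefSeq (GRCm38.p6, 250 bases before to 50 after a start). It was present in 0.0974% of them. Of 9258 tested genes with a window, 5 held it: Cyp26a1, Rarb, Ppbp, Hbb-y and Blvrb. The first 4 of these rose and Blvrb, a biliverdin reductase, fell, against 33.7% and 34.8% of all genes tested. Those 4 lay below 1 RPKM in both untreated libraries and passed the filter through other libraries. Their rise is thus largely set by it. The 5 genes came from the search and not from the rule for named genes. A repeat with 2 bases between the copies (DR2) was also searched. It was held by 10 tested genes, of which 4 rose 2-fold or more and 1 fell as far. Capitals mark the repeat in the windows of Cyp26a1 (chr19:37697558-37697857, plus strand, repeat read on the opposite strand and starting 32 bases before the gene's start) and Rarb (chr14:16575427-16575726, minus strand, repeat starting 53 bases before it).
Cyp26a1: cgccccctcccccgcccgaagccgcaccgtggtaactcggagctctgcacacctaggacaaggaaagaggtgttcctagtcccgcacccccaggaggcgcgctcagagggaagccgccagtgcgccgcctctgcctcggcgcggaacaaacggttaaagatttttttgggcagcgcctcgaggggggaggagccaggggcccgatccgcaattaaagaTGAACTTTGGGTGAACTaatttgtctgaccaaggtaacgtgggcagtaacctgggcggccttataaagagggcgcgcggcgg
Rarb: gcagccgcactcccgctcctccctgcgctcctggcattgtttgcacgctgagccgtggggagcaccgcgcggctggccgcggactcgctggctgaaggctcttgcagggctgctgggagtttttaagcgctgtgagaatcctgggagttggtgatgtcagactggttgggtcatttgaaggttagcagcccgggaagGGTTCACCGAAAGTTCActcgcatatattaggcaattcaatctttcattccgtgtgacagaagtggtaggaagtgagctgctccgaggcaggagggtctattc

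Cyp26a1, the enzyme that clears RA, had the largest increase of any gene named by the rule. It went from 0.0847 and 0.131 to 218 and 125 RPKM, a log2 difference of 7.23 ± 0.3. Rarb, the receptor gene that RA itself induces, went from 0.03404 and 0 to 18.9 and 21.4 RPKM (4.38 ± 0.13). Both RA libraries were far above both untreated libraries for each gene, and RA replicate 1 was the higher for Cyp26a1. A missing repeat in such a short window says only that these letters are not there.

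Several library traits stood apart from the groups and bear on what follows. Replicate 2 of both groups held 39 genes (short RNAs aside) at 4-fold or more above replicate 1, led by hepatocyte products such as Alb, Apoa1 and Fgb. Their summed RPKM was 14.8 and 766 in the untreated and 9.76 and 577 in the RA libraries, and replicate 2 of each GLP 3A group was also the higher. Alb, serum albumin, was at 3.14 and 258 RPKM untreated and 1.06 and 177 RPKM with RA. None of the 39 was called for RA. Without all 42 genes with this gap (a setting added after seeing the data) 4463 genes were called higher and 4595 lower. In 124 genes, of which 14 were not short RNAs, a value of 0 stood beside 5 RPKM or more in the other library of the group. An example is Zmynd8, a chromatin reader, at 45.2 and 44.3 RPKM untreated and 0 and 42.2 RPKM with RA. Such zeros may be failed estimates, and 4 of the 2-fold calls rest on one of these genes. Summed RPKM was 748600 and 762200 untreated and 529700 and 554900 with RA. The 10 most abundant genes took 10.7% and 11.1% of it untreated and 7.32% and 7.62% with RA. The files hold no read counts. Steps among low values put the depth of untreated replicate 2 and RA replicates 1 and 2 at about 0.498, 1.21 and 0.574 of untreated replicate 1, and depths about 2-fold away matched nearly as many genes.

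The untreated libraries carried the stem cell identity in the label. The 32 genes of a naive pluripotency list summed to 8151 and 8139 RPKM untreated and to 824 and 557 RPKM with RA. A list of 12 fibroblast markers, which feeder cells would bring, summed to 5.03 and 5.53 RPKM untreated, with Lum, Fap and S100a4 at 0 in both.

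Most genes tested differed between the RA and untreated groups. At the adjusted threshold 4453 genes rose (33.7%) and 4588 fell (34.8%). Of the called genes, 2044 rose 2-fold or more (15.5%) and 1344 fell as far (10.2%), while the median log2 difference over all genes was -0.03. Among the 2044 increases, 885 (43.3%) lay below 1 RPKM in both untreated libraries, and 253 (12.4%) were at 10 RPKM or more in both. Switches, from below 1 RPKM in both untreated libraries to 10 RPKM or more in both RA libraries, numbered 131 genes. The other way there were 60. Of the 1344 decreases, 901 (67.0%) started at 10 RPKM or more in both untreated libraries and 314 (23.4%) ended below 1 RPKM in both RA libraries. At 4-fold, 683 rose and 349 fell. Symbols whose loci overlap another symbol's were counted without a stated way of dividing reads, so values of Sox1, Sox2, Pax6, Nr2f1, Nr2f2, Msx1, Igf2, Mdk, Gli1, Boc, Pfkp, Pdha1, Ina, Nrp1, Gpc3, Smoc2, Klf9, Ccnd2, Ccnd3, Timp1, Timp2, B2m, H2-D1, Bmp4, Nkx6-2, Zeb1, Zeb2, Myh6, Myh7 and Tagln are uncertain to that extent. In a bulk sample, fewer cells of a type and less RNA per cell cannot be told apart, for any of these changes.

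**Figure D1:**
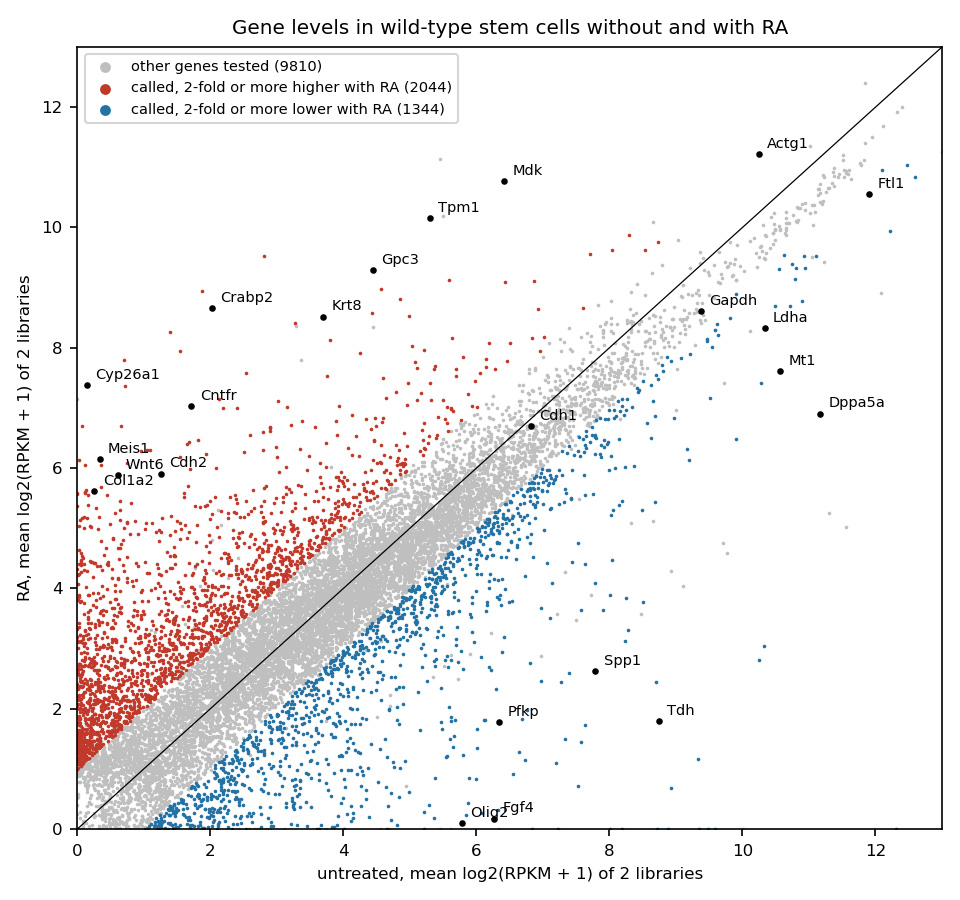
Each point is 1 of 13198 genes, by its mean log2(RPKM + 1) in the 2 untreated libraries (x axis) and the 2 RA libraries (y axis), with the line of equal levels drawn. The 2044 genes in red rose and the 1344 in blue fell 2-fold or more, and many red points start near 0 on the x axis while the blue ones spread along it.

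The share of changed genes differed by what the genes do. Of 352 tested transcription factor genes on the lists, 158 rose 2-fold or more (44.9%) and 76 fell (21.6%). Of 420 signalling genes, 194 rose (46.2%) and 47 fell (11.2%). Matrix, adhesion and cytoskeleton genes leaned further to increase, with 176 of 320 up (55.0%) and 18 down (5.62%). Metabolic genes leaned the other way, with 36 of 473 up (7.61%) and 98 down (20.7%), and a median log2 difference of -0.32. These lists were chosen with earlier results of the data known, so the shares describe them and test nothing. A gene below 1 RPKM in untreated cells was tested only if other libraries reached the filter, which favours rises in lists of such genes. Counts for each list below stand beside the 33.7% of all genes tested that rose and the 34.8% that fell.

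Among transcription factors, most homeobox genes that passed the filter rose. Of 32 tested Hox genes 31 rose, with a median of 3.91, and Hoxc13 was the one not called (1.89 and 1.95 RPKM untreated and 1.63 and 1.13 RPKM with RA). In the files 37 of 39 Hox genes lay below 1 RPKM in both untreated libraries, so most passed the filter through other libraries. The count of rises is thus largely set by the filter, and 7 Hox genes stayed below 1 RPKM in both RA libraries. The TALE homeobox genes, among them partners that bind DNA together with Hox factors, followed: of 17 tested 14 rose and 1 fell. Meis1 went from 0.216 and 0.3101 to 64.6 and 75.5 RPKM (5.81 ± 0.2) and Meis2 from 0.2703 and 0.296 to 59.5 and 71.4 RPKM (5.69 ± 0.26), both from near silence in each untreated library. Irx3, a patterning gene of the neural tube, rose from 0.0724 and 0.204 to 19.1 and 23.1 RPKM. The exception was Tgif1, a corepressor that can act on retinoid target sites, which fell by 1.39 ± 0.09 (from 138 and 144 to 51.95 and 53.98 RPKM).

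Homeobox genes outside these families rose in 28 of 35 tested cases and fell in 3. As with Hox genes, most in the files (56 of 66) lay below 1 RPKM in both untreated libraries. Msx1, a target of BMP signals in limb and facial mesenchyme, went from 0.0972 and 0.135 to 45.5 and 46.6 RPKM. Prrx2, a mesenchymal factor, went from 1.32 and 1.51 to 34.03 and 35.99 RPKM. Nkx2-5, best known from heart progenitors, went from 0.151 and 0.0375 to 7.38 and 9.41 RPKM. The falls were Nkx6-2, Cdx1 and En2. Cdx1 stood out because it is known as an RA target in the embryo: it fell from 25.9 and 27.9 to 3.96 and 2.39 RPKM, with both RA libraries below both untreated ones.

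Lineage factors of very different tissues rose side by side. In the Pax family Pax6, a factor of neural progenitors and eye, went from 0.0265 and 0.117 to 17.4 and 20.5 RPKM, and Pax3 went from 0.0129 and 0 to 2.996 and 3.48 RPKM. The SoxB1 gene Sox1 rose from 1.63 and 1.78 to 11.2 and 9.06 RPKM although its relative Sox2 fell by 3.25 ± 0.23. Endoderm-type Sox17 rose from 0.0815 and 0 to 28.4 and 14.98 RPKM, and Sox9, of cartilage and neural crest, from 0.0266 and 0.0923 to 6.57 and 8.72 RPKM. Of 7 GATA-type genes tested, 6 rose and 1 fell: Gata3 went from 0.102 and 0.267 to 13.3 and 15.1 RPKM, Gata6 from 0.05504 and 0.0915 to 15.7 and 9.97 RPKM and Gata4 from 0.8902 and 0.868 to 20.04 and 2.9 RPKM. RA replicate 1 was far above replicate 2 for Gata4, the widest gap in the family, and its log2 difference was 2.27 ± 0.82. The call was lost in 9 of the 22 other settings tried, at 1.05 without RA replicate 1 and at 2.02 to 2.28 in the others, among them the fit without a filter and the fit of the 4 wild-type libraries.

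The forkhead genes split, with 16 of 30 up and 10 down, against 33.7% and 34.8% of all genes. Foxa1, a pioneer factor of endoderm, rose from 0.103 and 0.128 to 9.87 and 7.17 RPKM and Foxc2, of paraxial and head mesenchyme, from 0.0234 and 0.0479 to 6.59 and 6.61 RPKM. Foxd3, which stem cells share with neural crest, fell from 14.1 and 14.3 to 0.149 and 0.175 RPKM, and Foxi3 fell from 7.09 and 6.29 to 0.0847 and 0 RPKM. T-box genes split as well, 3 up and 4 down of 7. Tbx2 rose from 0.161 and 0.117 to 22.8 and 44.3 RPKM while Eomes, which opens mesendoderm and trophoblast programmes, fell from 8.21 and 7.38 to 0.347 and 0.234 RPKM and T (brachyury) fell from 3.58 and 3.46 to 1.12 and 1.67 RPKM.

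Basic helix-loop-helix genes moved in both directions too: 14 of 26 rose and 11 fell. Olig2 and Olig1, oligodendrocyte factors in the nervous system, were well expressed before treatment. Olig2 fell from 53.2 and 54.4 to 0.108 and 0.0364 RPKM, a loss of 5.68 on the log2 scale and the largest in the list, and Olig1 fell from 37.2 and 35.3 to 0.198 and 0.236 RPKM. Hand2, of limb, heart and sympathetic lineages, rose from 0.00894 and 0 to 13.1 and 12.9 RPKM, and Twist1, of mesenchyme, from 0.5997 and 0.612 to 21.6 and 33.5 RPKM. Id1, Id2 and Id3, inhibitors of these factors and common BMP targets, rose by 2.02, 2.48 and 2.53. Id4 fell from 12.5 and 12.9 to 2.77 and 5.14 RPKM.

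Nuclear receptors of stem cells and of differentiated cells moved in opposite directions. The stem cell receptors Esrrb, Nr0b1 and Nr5a2 fell by 6.82, 5.82 and 4.56. Nr2f1 and Nr2f2, the COUP-TF genes, rose from 0.0913 and 0.0452 to 30.6 and 40.5 RPKM and from 0.137 and 0.18 to 25.96 and 38.5 RPKM. Of the receptors that bind RA, Rara did not pass the test (21.8 and 18.5 RPKM untreated and 23.6 and 19.5 RPKM with RA), Rarg fell from 33.9 and 34.5 to 16.5 and 14.1 RPKM and Rarb rose as given above. Of 24 tested receptors 11 rose and 8 fell, against 33.7% and 34.8% of all genes, with a median of 0.06, close to that of all genes.

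In the Klf and Sp family, 14 of 21 fell and 5 rose. Klf2, Klf4 and Klf5 of the naive network fell by 6.13, 4.81 and 2.62, and Klf9, a stress and hormone responsive factor, fell from 34.99 and 32.6 to 4.75 and 3.12 RPKM. Klf6 rose from 7.75 and 6.91 to 40.7 and 34.8 RPKM. The Ets genes Etv4 and Etv5, known as outputs of FGF signalling, fell from 54.6 and 54.9 to 1.06 and 1.7 RPKM and from 158 and 150.4 to 4.597 and 4.35 RPKM, and Ets1 rose from 0.344 and 0.409 to 17.9 and 22.1 RPKM. Factors for the epithelial to mesenchymal transition divided by role: Snai1, Snai2, Twist1, Twist2, Zeb1, Zeb2 and Prrx1 rose, while Grhl1, Grhl2, Grhl3 and Ovol2, which maintain epithelia, fell together with Snai3. The calls of Snai3 and Ovol2 were lost in some fits without 1 library, at -0.60 to -0.67 and -0.79 to -0.84. Among AP-1 genes Jun rose from 6.91 and 7.03 to 98.1 and 65.8 RPKM and Atf3 from 1.56 and 1.24 to 30.3 and 29.01 RPKM, while Fos (22.8 and 24.7 RPKM untreated and 60.1 and 28.9 RPKM with RA) and Myc (23.5 and 20.9 RPKM untreated and 21.9 and 28.6 RPKM with RA) did not pass the test.

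**Figure D2:**
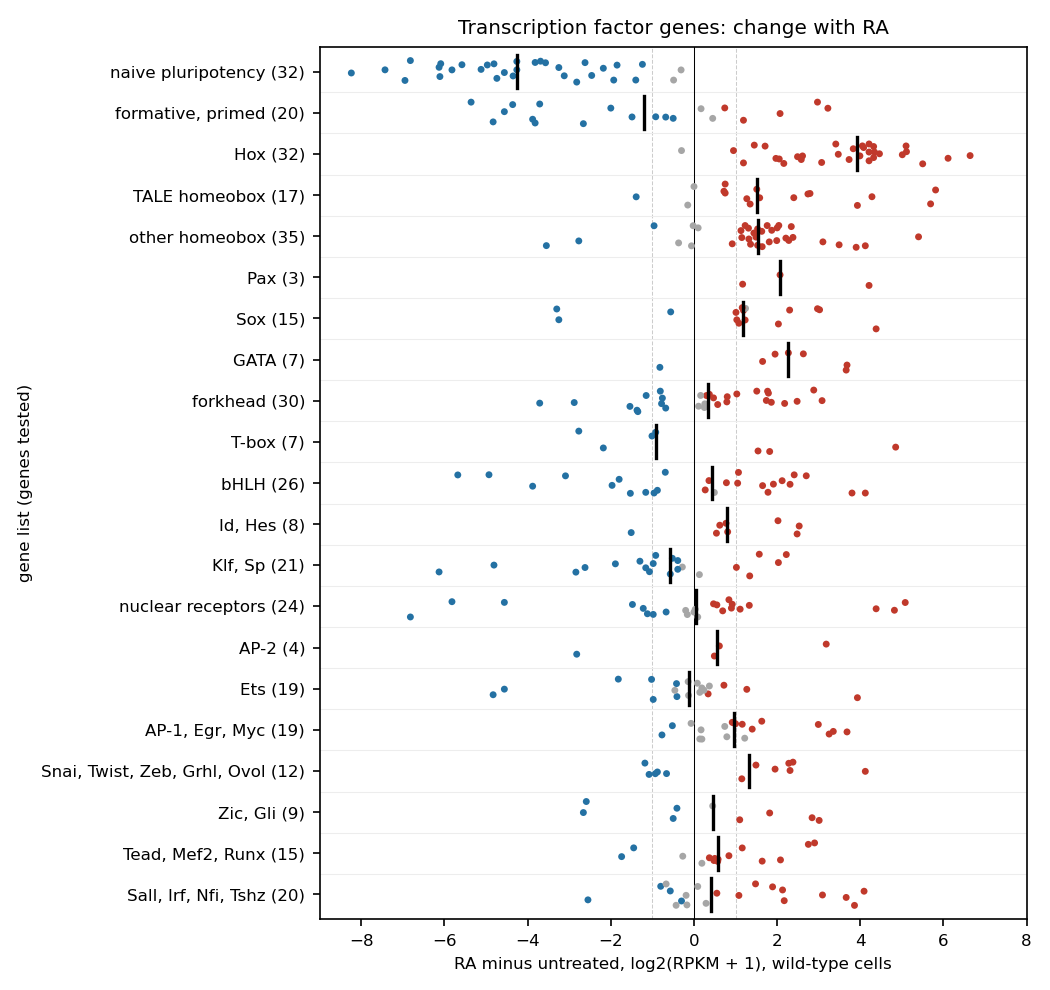
Each point is 1 tested gene of a transcription factor list, placed by its log2 difference (RA minus untreated, x axis), red where it rose, blue where it fell and grey where it was not called. Black bars are list medians, from -4.26 for naive pluripotency to 3.91 for Hox genes, and dashed lines mark 2-fold.

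Within signalling, the retinoid pathway itself changed widely, with 17 of 24 genes up and 2 down. Besides Cyp26a1, its relative Cyp26b1 rose from 0.0537 and 0.123 to 60.5 and 71.01 RPKM. Genes of retinol handling rose with them: Stra6, the membrane receptor for retinol-binding protein, went from 0.0917 and 0.0774 to 50.1 and 44.3 RPKM and Dhrs3, a reductase that lowers the supply of RA, from 0.716 and 1.22 to 72.9 and 80.9 RPKM. Crabp2, which carries RA to the nucleus, reached the highest level of the list (from 2.89 and 3.28 to 370.0 and 439.6 RPKM). Stra8, known for meiotic entry, rose from 0.229 and 0.325 to 29.3 and 24.3 RPKM.

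Nodal, its co-receptor gene and its inhibitors fell. Tdgf1, the Nodal co-receptor, fell from 492 and 479 to 0.552 and 0.674 RPKM, the inhibitors Lefty1 and Lefty2 fell by 4.36 ± 0.54 and 5.36 ± 0.35, and Nodal fell from 29.1 and 28.6 to 8.601 and 4.84 RPKM. Of 27 genes in the list, 16 rose and 9 fell. Of the TGF-beta ligands Tgfb2 rose from 0.402 and 0.423 to 9.29 and 17.2 RPKM and Tgfb3 from 0.111 and 0.112 to 4.16 and 4.82 RPKM, while Tgfb1, singled out after its values were seen, fell from 5.5 and 5.14 to 2.09 and 2.44 RPKM. Ltbp1, which holds latent TGF-beta in the matrix, rose from 0.919 and 0.771 to 19.1 and 21.9 RPKM. Tgfbi, named for its induction by TGF-beta, rose from 1.98 and 2.19 to 16.3 and 19.4 RPKM.

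Most BMP pathway genes rose, 23 of 33 against 6 that fell. Ligand and inhibitor genes rose together: Bmp5 went from 0 and 0.0195 to 2.87 and 5.98 RPKM and Gdf11 from 0.581 and 0.431 to 7.34 and 8.41 RPKM, and the antagonists Nog and Smoc2 went from 0.122 and 0.301 to 8.36 and 11.04 RPKM and from 0.0616 and 0.14 to 13.6 and 17.04 RPKM. The intracellular inhibitor Smad6 rose from 1.74 and 1.76 to 23.8 and 25.9 RPKM, whereas its relative Smad7 fell from 27.1 and 22.5 to 14.6 and 10.4 RPKM. Gdf3, a ligand of the stem cell state, fell from 44.9 and 46.3 to 1.57 and 1.04 RPKM.

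The FGF pathway had a median of 0.00, with 12 of 34 genes up and 9 down, against 33.7% and 34.8% of all genes. Fgf4, the main FGF of stem cells, fell from 77.3 and 74.7 to 0.1197 and 0.134 RPKM and Fgf17 fell from 15.5 and 17.3 to 0.375 and 0.238 RPKM. The feedback inhibitors Spry4 and Spry2 fell from 29.8 and 25.8 to 0.387 and 0.499 RPKM and from 93.5 and 90.6 to 10.4 and 15.7 RPKM, whereas the phosphatase gene Dusp5 rose from 3.57 and 3.39 to 35.7 and 40.3 RPKM. The receptor Fgfr2 rose from 0.459 and 0.455 to 27.2 and 27.2 RPKM, and Fgfrl1, a receptor without kinase domain, from 1.13 and 1.08 to 16.98 and 19.3 RPKM. Members at the kinase level such as Mapk3 (36.6 and 32.4 RPKM untreated and 34.6 and 26.1 RPKM with RA) and Grb2 (53.9 and 49.1 RPKM untreated and 46.7 and 56.2 RPKM with RA) were not called.

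Wnt ligand and receptor genes rose in 28 of 37 cases and fell in 3. Wnt6 led them, from 0.507 and 0.538 to 48.1 and 69.7 RPKM (5.27 ± 0.16). The receptor Fzd2 went from 2.35 and 2.704 to 84.6 and 90.1 RPKM, while Fzd5, the Frizzled gene that fell most, went from 31.5 and 27.4 to 1.41 and 1.01 RPKM, and Fzd7 stayed uncalled (56.9 and 52.4 RPKM untreated and 53 and 57.6 RPKM with RA). The secretion machinery split: Wls, which carries Wnt proteins to the surface, rose from 3.13 and 2.56 to 65.6 and 83.3 RPKM, and Porcn, which attaches their lipid, fell from 38.96 and 35.7 to 11.7 and 6.89 RPKM. Rspo3, which strengthens Wnt signals, rose from 0.116 and 0.236 to 15.4 and 19.4 RPKM. Of 27 tested inhibitors and targets of the pathway 15 rose and 6 fell: Nkd1 and Sp5 rose by 3.26 and 1.57, while Cdx1, Notum, Ccnd1 and T fell. Tcf7 (28.2 and 26.2 RPKM untreated and 27.5 and 30.1 RPKM with RA) was not called.

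In the hedgehog list 12 of 16 tested genes rose and 3 fell. Gas1, Cdon and Boc, co-receptors of hedgehog ligands, rose by 7.11 ± 0.33, 3.53 ± 0.2 and 3.26 ± 0.24, and the transducer Smo rose from 5.83 and 6.01 to 35.1 and 35.6 RPKM. Gli3, which often acts as the repressor, rose from 1.34 and 1.36 to 17.9 and 18.1 RPKM. Gli1, a usual target of an active pathway, fell from 16.1 and 16.2 to 3.33 and 0.881 RPKM, and RA replicate 1 was the higher of the treated libraries. Ptch1 was not called (13.1 and 13.2 RPKM untreated and 13.02 and 7.44 RPKM with RA), and fell in the fit without RA replicate 1 (-0.74).

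Of 23 tested genes of the LIF and Stat3 list 9 fell and 7 rose, near the shares over all genes. Among genes that LIF is known to induce, Socs3 fell from 36.5 and 33.05 to 12.2 and 12.6 RPKM, Socs2 from 40.1 and 43.2 to 7.54 and 8.71 RPKM, Pim3 from 93.9 and 97.5 to 24.96 and 18.6 RPKM and Tfcp2l1 from 118 and 93.5 to 1.65 and 0.852 RPKM. Stat3 was not called (23.1 and 22.9 RPKM untreated and 16.3 and 20.8 RPKM with RA), with both RA values below both untreated ones, and was called lower in 9 of the 22 other settings, at -0.30 to -0.47. Jak2, a kinase of the pathway, rose from 0.819 and 0.766 to 8.68 and 10.4 RPKM. Cntfr, the receptor for ciliary neurotrophic factor, which signals through the same shared chains, rose from 2.23 and 2.33 to 125 and 134 RPKM (5.32 ± 0.13).

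Growth factor genes rose at ligand, binding protein and receptor level. In the IGF list 15 of 21 rose and 2 fell, with Igf2 at 1.94 and 1.87 RPKM untreated and 257 and 238 RPKM with RA and the binding proteins Igfbp5 and Igfbp4 rising by 5.51 ± 0.34 and 5.06 ± 0.29. The heparin-binding cytokines Mdk and Ptn, known to be RA-inducible, rose from 81.5 and 88.2 to 1629.6 and 1876 RPKM and from 0.111 and 0.09496 to 27.6 and 44.4 RPKM, which placed Mdk among the most abundant transcripts of treated cells. Csf1, the macrophage growth factor, rose from 0.184 and 0.199 to 17.9 and 23.1 RPKM. In PDGF signalling the ligand gene Pdgfa fell from 69.1 and 71.5 to 12.2 and 12.1 RPKM, and its receptor gene Pdgfra rose from 0.156 and 0.155 to 10.9 and 8.65 RPKM. Kit fell from 14.8 and 13.8 to 3.73 and 1.57 RPKM.

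Of 43 semaphorin, plexin, netrin, slit and robo genes, 35 rose and 7 fell, with Sema3c from 0.128 and 0.199 to 16.4 and 25.8 RPKM and Nrp1, its receptor subunit, from 0.0621 and 0.167 to 9.67 and 10.8 RPKM. Netrin-1 (Ntn1) fell from 29.6 and 28.1 to 8.68 and 7.57 RPKM. Of 17 Eph and ephrin genes 12 rose. The ligands Efnb1 and Efnb2 went from 1.29 and 1.24 to 28.2 and 31.4 RPKM and from 2.04 and 1.51 to 26.1 and 34.5 RPKM, while the receptor Epha2 fell from 131 and 133 to 19.7 and 21.03 RPKM. Of 22 Notch genes 14 rose and 5 fell, 5 and 1 of them 2-fold or more. The widest change was in Dlk1, an imprinted Notch-related gene (from 1.04 and 1.08 to 69.9 and 87.1 RPKM). In the Hippo list 15 of 18 genes rose and 2 fell, with a median of 1.96. Its target Cyr61 rose from 12.6 and 13.2 to 282 and 277 RPKM. Ctgf, another target, was not called (15.4 and 17 RPKM untreated and 21.99 and 23.5 RPKM with RA), but was called higher (0.47) in the fit of the 4 wild-type libraries and without either GLP 3A RA library.

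Of 23 innate immune genes 10 rose and 8 fell, against 33.7% and 34.8% of all genes. The RNA sensor Ddx58 fell from 16.8 and 15.7 to 3.32 and 2.77 RPKM, and Tap1, H2-D1 and B2m, of class I antigen presentation, rose by 2.06 ± 0.15, 1.82 ± 0.22 and 1.42 ± 0.36. The call of B2m was lost without untreated replicate 1 (1.26) or RA replicate 2 (1.02).

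**Figure D3:**
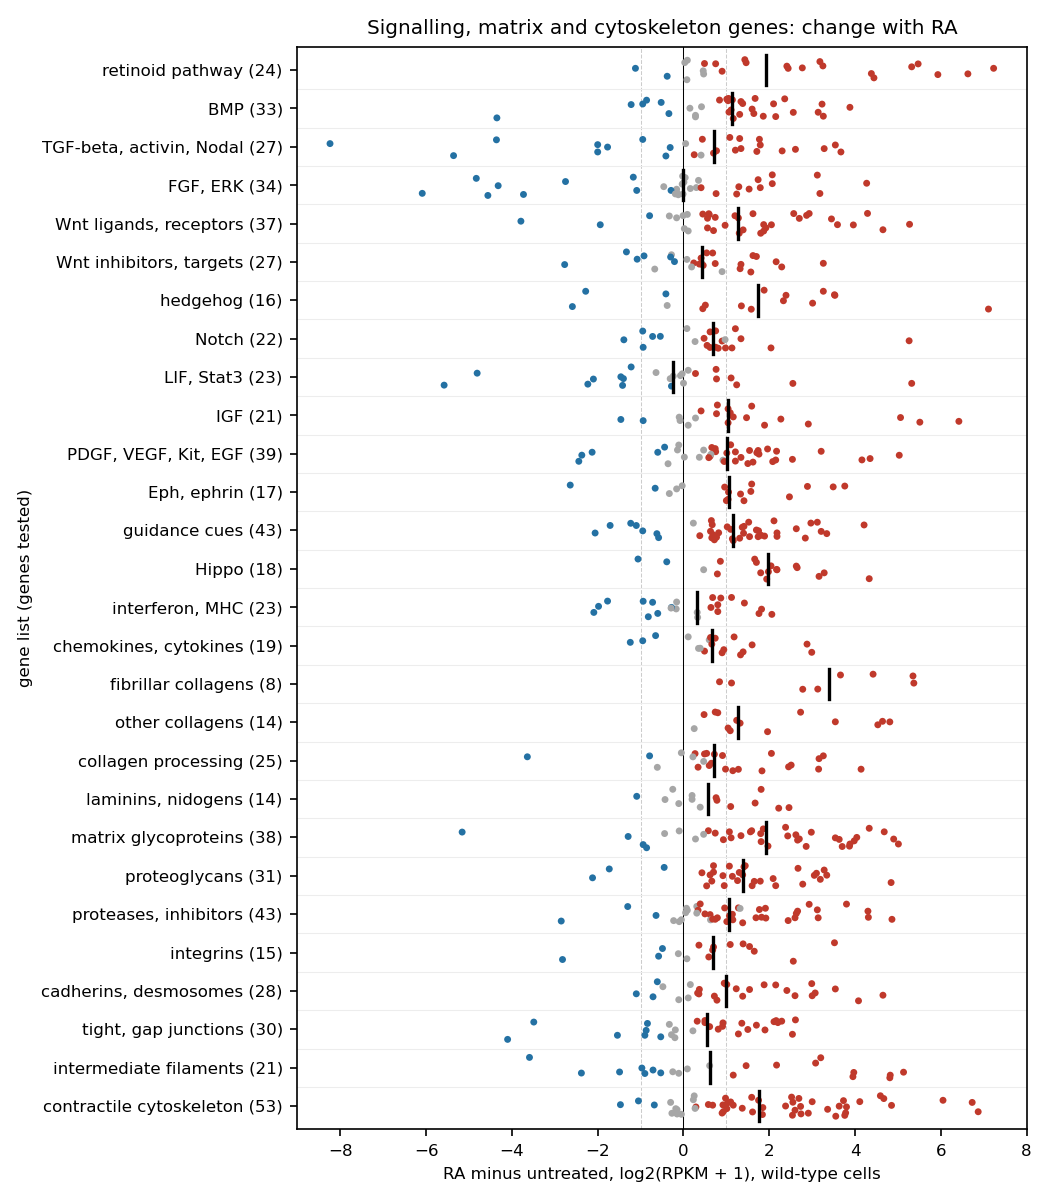
Tested genes of the signalling lists (upper 16 rows) and of the matrix, adhesion and cytoskeleton lists (lower 12 rows) by log2 difference, RA minus untreated, with red points for genes that rose, blue for those that fell and grey for those not called. Black bars are medians, which run from -0.24 for LIF and Stat3 genes to 3.40 for fibrillar collagens.

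Most collagen genes that passed the filter rose. All 8 fibrillar collagens tested rose, of 11 in the files. Each of the 11 lay below 1 RPKM in both untreated libraries, so those tested passed the filter through other libraries and their rise is largely set by it. Other collagens numbered 33 in the files, of which 14 were tested, 13 rose and 0 fell, while 20 stayed below 1 RPKM in both RA libraries. Col1a2 went from 0.195 and 0.194 to 50.8 and 45.8 RPKM, Col2a1, the cartilage collagen, from 0.647 and 0.695 to 68.98 and 65.4 RPKM, and Col3a1 from 0.02003 and 0.0544 to 18.98 and 23.6 RPKM. Genes that fold and crosslink collagen moved with it, 19 of 25 upwards. Serpinh1, the collagen chaperone Hsp47, rose from 20.7 and 20.6 to 415 and 349 RPKM (4.14 ± 0.09), and the lysyl oxidase gene Loxl1 rose from 0.372 and 0.496 to 10.01 and 13.8 RPKM. Pcolce2, an enhancer of procollagen cleavage, fell from 27.5 and 24.4 to 0.995 and 1.35 RPKM. The fibroblast marker list summed to 120 and 142 RPKM with RA, against 5.03 and 5.53 untreated. Of its 8 tested genes 7 rose, while Lum and Fap stayed at or near 0 and Thy1 fell.

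Basement membrane genes rose unequally in the RA libraries. Col4a1 went from 2.05 and 1.797 to 166 and 30.8 RPKM and Col4a2 from 0.583 and 0.551 to 90.8 and 20.1 RPKM, with RA replicate 1 well above replicate 2 in both. Lama1 (from 6.83 and 6.67 to 99.3 and 17.2 RPKM) and Lamb1 (from 22.4 and 20.4 to 165 and 64.6 RPKM) had the same order, whereas Lamb2 did not (from 6.396 and 6.68 to 26.1 and 24.8 RPKM). The 19 markers of primitive and parietal endoderm, cells that secrete these proteins, include Col4a1, Col4a2, Lama1 and Lamb1. They summed to 138 and 124 RPKM untreated and to 1378 and 741 RPKM with RA, and the other 15 alone to 106 and 95 RPKM untreated and to 857 and 608 RPKM with RA. Most of the sum of these 15 was the collagen-binding protein Sparc, at 91.6 and 79.6 RPKM untreated and 612 and 484 RPKM with RA. In the files 14 of the 19 lay below 1 RPKM in both untreated libraries, which favours rises among those tested. Of the 18 tested 13 rose and Fst, an activin antagonist, fell, a call lost without untreated replicate 2 (-0.32). All 18 tested markers were higher in RA replicate 1, by a median of 1.29 on the log2 scale against 0.01 between the untreated libraries and 0.65 between the GLP 3A RA libraries, and no marker was at 0 in both libraries of a group. The part of the other markers in the basement membrane result was not tested. Without RA replicate 1 the log2 differences were 3.45 for Col4a1 and 1.23 for Lama1, and without replicate 2 they were 5.84 and 3.69. Lama1 lost its call in 7 of the 22 other settings, the other 6 at 2.45 to 2.48.

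Of 38 matrix glycoprotein genes 30 rose and 4 fell. Fibrillin-2 (Fbn2) went from 0.0674 and 0.0754 to 31.1 and 31.04 RPKM, thrombospondin-1 (Thbs1) from 0.508 and 0.4696 to 32.5 and 42.8 RPKM and Ecm1 from 3.395 and 3.37 to 109 and 180.0 RPKM. Of those most abundant in untreated cells, osteopontin (Spp1) fell by 5.16 ± 0.47 (from 214 and 226 to 6.25 and 4.26 RPKM) and fibronectin (Fn1) by 1.29 ± 0.15 (from 310.1 and 297 to 133 and 114 RPKM), while Sparc, a collagen-binding protein outside the rule for named genes, rose from 91.6 and 79.6 to 612 and 484 RPKM. Fn1 remained above 100 RPKM in each library, which Spp1 did not. Proteoglycan genes rose in 28 of 31 cases. Glypican-3 (Gpc3), which binds growth factors at the surface, rose from 21.8 and 19.9 to 609 and 641 RPKM, and the matrix linker Hapln1 from 0.0195 and 0.0132 to 10.3 and 8.38 RPKM. Syndecan-4 (Sdc4) fell from 51.3 and 48.1 to 17.1 and 11.9 RPKM. Of 43 genes of proteases and their inhibitors 30 rose and 3 fell, with Adamts1 from 0.478 and 0.409 to 24.8 and 30.7 RPKM, tissue plasminogen activator (Plat) from 0.145 and 0.368 to 35.9 and 35.03 RPKM and the inhibitor Timp2 from 0.463 and 0.417 to 17.4 and 20.7 RPKM. Timp1 was not called (29.8 and 30.9 RPKM untreated and 22.4 and 29.5 RPKM with RA).

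Cadherin and desmosome genes rose in 21 of 28 tested cases and fell in 3. N-cadherin (Cdh2) rose from 1.33 and 1.47 to 55.1 and 63.4 RPKM (4.65 ± 0.22) and Cdh6 from 0.00805 and 0 to 13.8 and 18.3 RPKM, but E-cadherin (Cdh1) was not called (116 and 107 RPKM untreated and 115 and 92.7 RPKM with RA), with values of the groups overlapping. Desmosome genes Dsp and Dsc2 rose from 1.08 and 0.846 to 14.9 and 14.5 RPKM and from 0.399 and 0.204 to 10.9 and 9.05 RPKM. Of the integrins Itgb1 rose from 34.1 and 32.8 to 174 and 235 RPKM and Itga3 from 5.91 and 5.89 to 83.99 and 72.6 RPKM, and Itgb7 fell from 8.84 and 8.27 to 0.506 and 0.209 RPKM. At tight junctions Jam2 fell from 49.4 and 45.9 to 1.35 and 2.4 RPKM, and F11r (Jam-A) rose from 41.9 and 38.4 to 204 and 196 RPKM. Epcam, an epithelial surface protein of stem cells, fell from 105 and 100.1 to 57.4 and 52.03 RPKM.

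Intermediate filaments changed with a wide margin between groups. Krt8 and Krt18, keratins of simple epithelia, rose from 11.2 and 12.8 to 381 and 350.1 RPKM and from 8.69 and 8.73 to 349 and 329.8 RPKM, while Krt42 and Krt17 fell from 11.8 and 11.7 to 0.0623 and 0.0436 RPKM and from 6.35 and 7.33 to 0.426 and 0.587 RPKM. Vimentin (Vim), of mesenchyme, rose from 28.7 and 27.2 to 352 and 565 RPKM and nestin (Nes), of neural progenitors, from 1.29 and 1.08 to 28.1 and 39.2 RPKM. Genes of neuronal filaments fell: Nefl from 13.1 and 12.8 to 4.94 and 7.52 RPKM and Ina from 12.8 and 12.5 to 5.66 and 7.1 RPKM.

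In the contractile list 41 of 53 genes rose, 34 of them 2-fold or more, and 3 fell, against 33.7% and 34.8% of all genes. Tropomyosin-1 (Tpm1) went from 39.96 and 37.1 to 940.4 and 1371 RPKM, calponin-1 (Cnn1) from 0.517 and 0.599 to 30.4 and 49.2 RPKM and Myl9, the regulatory light chain of smooth muscle and non-muscle myosin, from 0.715 and 0.453 to 89.6 and 119 RPKM. Sarcomeric actins rose from near silence, Acta1 from 0.378 and 0.433 to 28.1 and 38.2 RPKM and Actc1 from 0.0885 and 0 to 9.13 and 17.9 RPKM. Beta-actin (Actb) was not called (873 and 730.2 RPKM untreated and 825 and 718 RPKM with RA), and under quantile normalization it was called higher (0.54). RA replicate 2 was the higher library for Cnn1, Myl9, Acta1 and Actc1, which is the reverse of the endoderm markers. The smooth muscle list of 10 genes summed to 25.9 and 27.9 RPKM untreated and 969 and 1361 with RA, mostly Acta2 and Tagln. Myocd, the master regulator of smooth muscle, reached no more than 0.333 RPKM in any library. Of skeletal muscle regulators, Myf5 was at 0 in all 4 libraries and Myod1 and Myog were below 0.05 RPKM.

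Serum response factor, which controls many of these genes, binds the CArG box. That motif was found on either strand in 1.63% of all 32851 promoter windows and in 8 of 47 contractile genes with a window (17.0%): Acta1, Actc1, Actg1, Cnn2, Myl6, Myl7, Myl9 and Vcl. Of these genes 7 rose, near the share in the whole contractile list (41 of 53 tested), so the count does not set them apart. Myl7 was not called (3.298 and 2.496 RPKM untreated and 2.46 and 2.55 RPKM with RA). These matches are letters in a window and no measured binding. The windows of Myl9 (GRCm38.p6, chr2:156775214-156775513, plus strand) and Acta1 (chr8:123894726-123895025, minus strand), the genes with the largest changes among the 8, are shown with the box in capitals, 161 and 73 bases before the start. Srf itself, outside the rule for named genes and looked up after the search, rose by 1.16 ± 0.09.
Myl9: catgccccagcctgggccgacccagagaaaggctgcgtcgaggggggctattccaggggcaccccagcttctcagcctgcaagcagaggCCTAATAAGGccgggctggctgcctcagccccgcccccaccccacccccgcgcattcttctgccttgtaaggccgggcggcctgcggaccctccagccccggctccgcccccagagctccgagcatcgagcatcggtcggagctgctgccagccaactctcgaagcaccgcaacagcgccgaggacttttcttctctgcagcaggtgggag
Acta1: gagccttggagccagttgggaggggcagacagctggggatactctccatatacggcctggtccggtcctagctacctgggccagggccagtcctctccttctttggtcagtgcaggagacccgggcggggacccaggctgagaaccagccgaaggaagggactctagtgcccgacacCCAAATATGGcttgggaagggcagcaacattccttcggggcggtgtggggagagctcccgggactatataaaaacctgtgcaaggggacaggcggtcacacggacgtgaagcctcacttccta

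Markers of finished cell types gave an uneven picture, to be read beside the 33.7% of all genes that rose and the 34.8% that fell. Of 10 tested neural progenitor markers 8 rose, yet of 11 tested neuron markers 7 fell. Stmn2, a growth cone protein, fell from 189 and 192 to 8.82 and 14.8 RPKM and neuronal tubulin (Tubb3) fell from 24.6 and 23.6 to 11.2 and 11.6 RPKM, while Dcx, of migrating neurons, rose from 0.0279 and 0.008003 to 1.58 and 2.11 RPKM. Of 10 tested heart markers 6 rose (Nkx2-5, Actc1, Myh6, Myh7, Myl3 and Hcn4) and none of the 10 fell. All 6 lay below 1 RPKM in both untreated libraries and passed the filter through other libraries. Their rise is thus largely set by it. Of heart markers under the filter, Myl2 and Ryr2 were lower and Tnnt2, Isl1 and Tbx5 higher in both RA libraries. Myh7, a cardiac myosin, went from 0.0805 and 0.0819 to 2.699 and 3.15 RPKM, Nppa was not called (0.525 and 0.262 RPKM untreated and 0.259 and 0.596 RPKM with RA) and Tnnt2 was under the filter. Of 8 tested endothelium and blood markers 4 rose (Cdh5, Kdr, Itga2b and Hbb-bh1) and 2 fell, Tek and Pecam1, not far from the shares over all genes. The 4 that rose also lay below 1 RPKM in both untreated libraries. All 8 tested were higher in RA replicate 1, by a median of 0.77 on the log2 scale. Calls were lost for Hbb-bh1 in 9 of the 22 other settings (0.41 to 1.10), for Tek without either untreated library or RA replicate 2 (-0.26 to -0.47), for Cdh5 without either untreated library (0.95) or under quantile normalization (0.81), and under the latter also for Itga2b (0.29) and Myh6 (0.32). Pecam1, which stem cells also carry, fell from 19.3 and 20.2 to 1.45 and 0.659 RPKM. Among trophoblast markers Krt7, Krt8, Krt18, Gata3, Hand1 and Plac1 rose, Tfap2c, Eomes and Ascl2 fell, and Tpbpa was at 0 in all 4 libraries. Of mesoderm markers, Hand2, Meox1, Foxf1a, Hand1 and Bmp4 rose and Tcf15, Eomes and T fell, with Msgn1 at 0 throughout. The rise of Bmp4 (1.14 ± 0.37) lost its call in 7 of the 22 other settings, at 0.88 without RA replicate 2 and at 1.12 to 1.17 in the others.

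Glycolysis stood out among the metabolic lists. Of 31 genes 19 fell, 14 of them 2-fold or more, and 3 rose. Pfkp, a phosphofructokinase, fell from 77.7 and 83.1 to 2.27 and 2.58 RPKM (-4.57 ± 0.16), a deeper loss than any other gene of the list. Hexokinase-2 (Hk2) fell from 79.4 and 66.8 to 20.9 and 15.1 RPKM, lactate dehydrogenase A (Ldha) from 1249 and 1331 to 400.1 and 256 RPKM and aldolase A (Aldoa) from 1376 and 1497 to 451 and 379 RPKM. Kinases that hold pyruvate back from the mitochondrion fell as well, Pdk1 from 48.7 and 44.8 to 6.48 and 4.56 RPKM and Pdk4 from 6.12 and 6.05 to 0.625 and 0.972 RPKM. The muscle enolase Eno3 rose from 8.01 and 8.15 to 45.3 and 53.7 RPKM and Pdk3 rose from 21.3 and 19.1 to 39.8 and 40.4 RPKM. The glucose transporter Slc2a1 was not called (198 and 204 RPKM untreated and 242 and 162 RPKM with RA).

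Mitochondrial genes fell by less and more evenly. Of 73 nuclear genes of oxidative phosphorylation 58 fell and 1 rose, but only 4 fell 2-fold or more, and the median was -0.66. Atp5g1, a subunit of the ATP synthase ring, fell from 279 and 315 to 112 and 124 RPKM and Uqcrc1, of complex III, from 187 and 183 to 95.5 and 85.4 RPKM. In the TCA list Pdha1, of pyruvate dehydrogenase, fell from 158 and 144 to 64.1 and 58.97 RPKM and Idh3a from 72.8 and 74.6 to 29.3 and 32.02 RPKM, while Idh2 rose from 44.8 and 45.97 to 85.3 and 85.3 RPKM and citrate synthase (Cs) was not called (108 and 106 RPKM untreated and 98.4 and 102 RPKM with RA).

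Serine, threonine and one-carbon genes fell at several steps. Tdh, the threonine dehydrogenase on which mouse stem cells depend, fell from 429.6 and 425 to 5 and 1.01 RPKM, with RA replicate 1 the higher of the treated libraries. Gldc, of glycine cleavage, fell from 83.6 and 80 to 12.4 and 12.1 RPKM and Psat1, of serine synthesis, from 266 and 275 to 59.4 and 67.5 RPKM. Transsulfuration genes Cth and Cbs fell from 79.2 and 85.7 to 5.82 and 7.71 RPKM and from 17.1 and 18.8 to 2.17 and 2.53 RPKM. Of 35 genes 22 fell and 3 rose, and one of the rises was the folate receptor Folr1, from 13.5 and 14.9 to 68.3 and 47.4 RPKM.

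Nucleotide and amino acid supply followed. Of 34 nucleotide genes 25 fell and 2 rose: Upp1, uridine phosphorylase, fell from 193 and 203 to 4.67 and 0.9504 RPKM and Hprt, of purine salvage, from 161 and 159.8 to 48.1 and 50 RPKM. Rrm1, the large subunit of ribonucleotide reductase, was not called (78.9 and 71.8 RPKM untreated and 68.5 and 68.3 RPKM with RA). Of 40 amino acid transport and metabolism genes 22 fell and 7 rose. Slc7a3, for cationic amino acids, went from 78.1 and 77.2 to 4.26 and 3.83 RPKM, Slc7a5, for large neutral ones, from 88.4 and 82.7 to 17.6 and 12.5 RPKM and Asns, asparagine synthetase, from 285 and 248 to 51.2 and 29.1 RPKM. Slc38a4 rose from 50.99 and 50.4 to 189 and 212 RPKM. Arginase-1 (Arg1), singled out after its values were seen, was not called (0.121 and 10.4 RPKM untreated and 13.6 and 17.7 RPKM with RA), with untreated replicate 2 far above replicate 1.

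Of 48 lipid genes 14 rose and 13 fell, against 33.7% and 34.8% of all genes. Cpt1a, which admits fatty acids to the mitochondrion, fell from 24.6 and 24.1 to 0.852 and 1.83 RPKM and Apoe fell from 1148 and 1343 to 182 and 156 RPKM. The lipid droplet protein Plin2 rose from 14.97 and 16.8 to 76.7 and 83.4 RPKM and the desaturases Fads1 and Fads2 rose from 23.5 and 21.7 to 63.1 and 71.1 RPKM and from 19.7 and 22.3 to 83.2 and 90.8 RPKM. Cholesterol synthesis moved least of the metabolic lists, with 17 of 29 genes not called and a median of 0.08.

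Redox genes moved in both directions, 24 of 42 down and 7 up. The metallothioneins Mt1 and Mt2, which bind zinc, fell from 1373 and 1673 to 236 and 159.8 RPKM and from 936 and 982 to 114 and 68.9 RPKM. Nqo1, a quinone reductase, fell from 19.1 and 19.5 to 2.53 and 2.57 RPKM and mitochondrial superoxide dismutase (Sod2) from 76.9 and 79.2 to 13.5 and 13.6 RPKM. Gpx8 and Gpx3, glutathione peroxidases of the secretory route, rose from 2.68 and 3.46 to 28.4 and 46.8 RPKM and from 6.699 and 7.38 to 95.1 and 54.2 RPKM. The endoplasmic reticulum list was the metabolic list with the largest share of increases, 27 of 38, though 6 reached 2-fold: Creb3l1 and Creb3l2, factors for secretory load, rose from 3.18 and 3.46 to 14.5 and 15.3 RPKM and from 1.51 and 1.56 to 11.4 and 9.25 RPKM, and Xbp1 rose from 18.4 and 17.7 to 44.5 and 39.8 RPKM. Atf4 fell from 141 and 139.8 to 73.4 and 76.8 RPKM. In the lysosome list the regulator Tfeb fell from 28.4 and 26.5 to 2.74 and 1.997 RPKM, while hydrolase genes such as Naglu (from 0.859 and 1.03 to 10.2 and 11.4 RPKM) and Lipa (from 2.16 and 3.08 to 13.1 and 11.5 RPKM) rose. Both ferritin genes, Fth1 and Ftl1, fell by 1.42 ± 0.12 and 1.34 ± 0.13.

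Proliferation genes separated by phase. Of 33 S phase genes 29 fell and 0 rose, with a median of -0.88. Ung fell from 85.98 and 86.3 to 23.1 and 21.1 RPKM and Mcm5 from 181 and 185 to 81.9 and 72.2 RPKM. In the list for G2 and M phase 18 of 30 fell, and 0 reached 2-fold. CDK inhibitor genes rose: Cdkn1c from 4.82 and 5.33 to 75.8 and 112 RPKM, Cdkn2b from 0.5898 and 0.771 to 14.9 and 19.6 RPKM and Cdkn2a from 4.53 and 5.11 to 39.5 and 46.3 RPKM. D-type cyclins exchanged, as Ccnd1 fell from 79 and 73.1 to 30.5 and 40.9 RPKM, Ccnd2 rose from 4.12 and 3.24 to 24.3 and 21.9 RPKM and Ccnd3 was not called (119.5 and 125 RPKM untreated and 113 and 134 RPKM with RA). In the apoptosis list 16 of 27 genes rose and 7 fell, on both sides of cell death. Bcl2l11 (Bim) and Bbc3 (Puma) rose from 5.87 and 5.98 to 18.3 and 19.9 RPKM and from 13.8 and 14.4 to 45.3 and 40.1 RPKM, and Bid fell from 25.9 and 26.9 to 6.97 and 6.45 RPKM. Bcl2 and Bcl2l1, which oppose cell death and lie outside the rule for named genes, rose by 1.09 and 1.13.

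**Figure D4:**
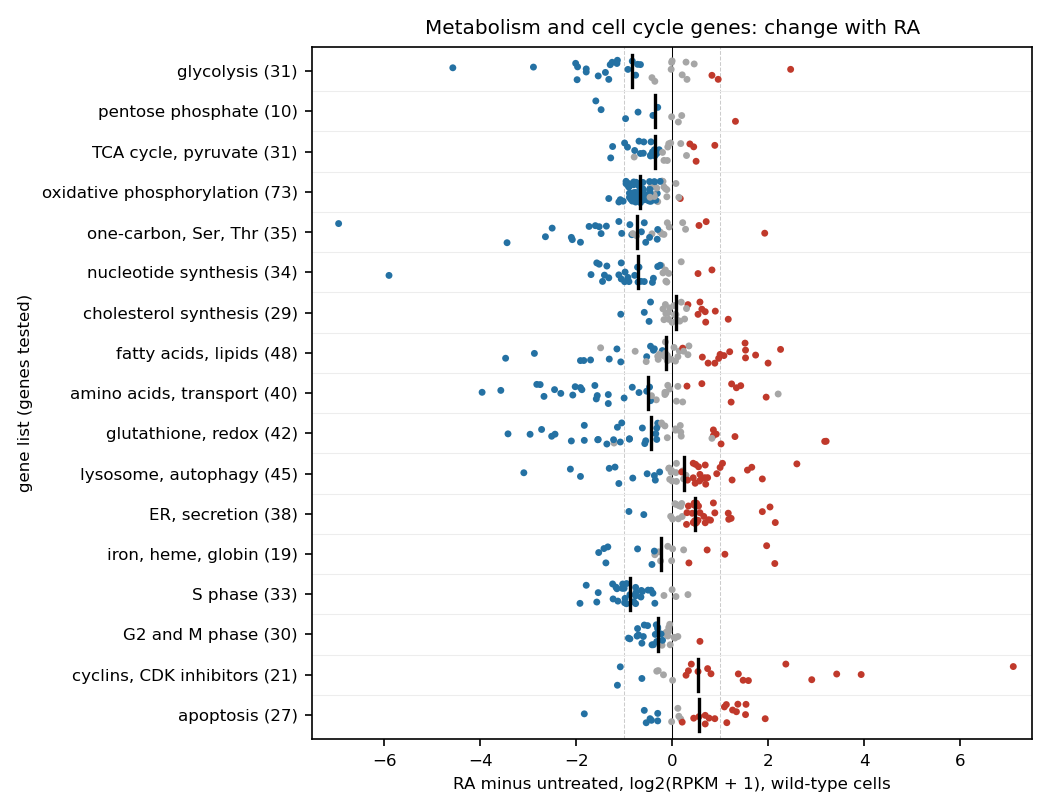
Tested genes of the metabolic and cell cycle lists by log2 difference, RA minus untreated, coloured red where they rose, blue where they fell and grey where not called, with black bars for medians. The medians run from -0.88 for S phase and -0.83 for glycolysis to 0.56 for apoptosis.

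The 2 RA libraries were less alike than their shared label. Over the 13198 genes 279 were 2-fold apart between them, 124 higher in replicate 1 and 155 in replicate 2, against 216 genes between the untreated libraries. The genes that were higher in replicate 1 by the widest margins were Cubn, an endocytic receptor of visceral endoderm, at 15.6 and 0.624 RPKM, Srgn at 24.3 and 1.91 RPKM and Lama1. Pou5f1 had the same order at 14.6 and 2.20 RPKM, and so had Foxq1 at 14.8 and 1.90 RPKM. Of the 15 widest gaps in that direction, 14 had the same direction between the GLP 3A RA libraries, with Fosb the exception. Over 32 naive pluripotency genes 26 were higher in replicate 1, and over 32 Hox genes 5 were. Cubn was not called (2.34 ± 1.07), but was in 3 other settings, at 4.01 without RA replicate 2, 2.34 with the replicate number as a block and 4.72 with a pseudocount of 0.1. Srgn and Foxq1 were called, and each lost the call in 8 of the 22 other settings, at 1.48 and 1.25 without RA replicate 1 and otherwise at 2.93 to 3.10 for Srgn and 2.20 to 2.51 for Foxq1. The labels do not say how these cultures or libraries differed.

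**Figure D5:**
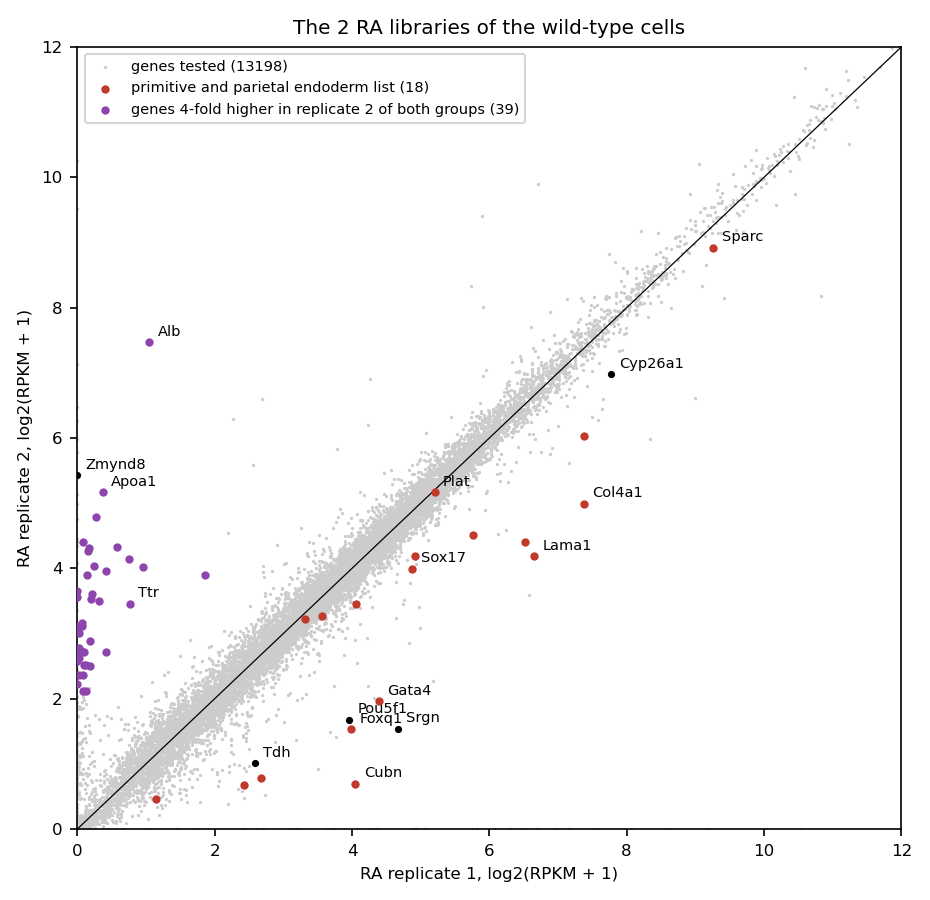
The 13198 tested genes by log2(RPKM + 1) in RA replicate 1 (x axis) and RA replicate 2 (y axis), with the line of equal levels. The 18 endoderm markers in red lie below the line, from Plat near it to Cubn far from it, and the 39 genes in purple, led by Alb, lie at the left edge where replicate 1 holds little of them.

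The RA response of the GLP 3A cells, measured in other libraries with other controls, can be set beside these values. Of the 3388 genes that changed 2-fold or more in wild-type cells, 3359 had the same sign in GLP 3A cells, and 2711 (80.0%) were 2-fold or more in the same direction. A test of the difference between the responses called 238 genes (1.80% of those tested), and 2764 had an unadjusted p under 0.05. The count of 238 ranged from 10 to 1129 in fits that left out 1 library, so the genes named next were not stable calls in that sense. Among genes described above, the rise of Msx1, Hand2, Fgfr2, Pax3, Col2a1 and Pdgfra was smaller in the mutant cells by that test, and so was the rise of Id3 and Jun. Hand2, with the largest of these differences, went from 0.0195 and 0.0383 to 1.33 and 1.71 RPKM in GLP 3A cells.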

How the data were processed

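Per the labels' protocols, total RNA from Trizol was cleared of DNA with Turbo DNase and sequenced as single-end libraries. RPKM per gene symbol is the unit the authors deposited. The submitters' processing notes name Bowtie 0.12.7, TopHat, SAMtools, Cufflinks and mm9, without order or settings. No read counts were used, so depth was only estimated. The other 32 samples of the series were not analysed here.

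Files were joined on symbols found in all 8 (12 symbols were left out). Values were taken as log2(RPKM + 1), and genes with 1 RPKM or more in at least 2 libraries were kept. limma 3.58.1 in R 4.3.3 fitted 4 group means over the 8 libraries, with an intensity trend in the empirical Bayes step (4 residual and 2.26 prior degrees of freedom). Tests were two-sided with Benjamini-Hochberg adjustment over all genes tested and a threshold of 0.05. The code was tested on simulated data. Named genes were the largest called changes overall and, in each list, up to 6 rises, 6 falls and 3 uncalled genes of highest level, with the most abundant and most switched genes and the widest gaps between RA libraries. The members and gene lists were chosen with earlier results of these data known. The alternatives covered pseudocount, filter, scaling, prior, gene sets, replicate block and leaving out each library. Promoter sequences are from RefSeq (GRCm38.p6). Some genes that the rule names are not reported here.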

Additional observations from a re-analysis of the deposited data

Results flagged for a closer look

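Of the genes named above, 18 responded to RA differently in GLP 3A and wild-type cells, by limma's test of the difference between the responses (adjusted over all genes tested). Each value is the GLP 3A response minus the wild-type response on the log2 scale. Rises were smaller in GLP 3A cells for Hand2 (-2.52), Msx1 (-2.07), Fgfr2 (-1.92), Sparc (-1.64), Id3 (-1.58), Jun (-1.56), Sp5 (-1.49), Col2a1 (-1.47), Pax3 (-1.42), Pdgfra (-1.36), Gata3 (-1.16), Serpinh1 (-1.12), Fads2 (-0.94) and Cyr61 (-0.93). For Sparc, Serpinh1, Fads2 and Cyr61 the RA values of the genotypes overlapped, and both untreated values were higher in GLP 3A cells. Sparc was at 262 and 242 RPKM untreated and 485 and 538 RPKM with RA in GLP 3A cells. In wild-type cells it was at 91.6 and 79.6 RPKM and then 612 and 484 RPKM. The fall of Notum was deeper (-1.69), and the falls of Spry4 (1.14) and Tcf15 (1.05) were shallower. For Spry4 and Tcf15 both untreated values were lower in GLP 3A cells. With RA, the Spry4 values of the genotypes overlapped, and both Tcf15 values were lower in GLP 3A cells. The shallower falls thus do not reflect higher levels of these genes with RA in GLP 3A cells. Nppa, an atrial peptide gene that was not called in wild-type cells, had a difference of 1.85. The number of genes this test called was not stable when 1 library was left out.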

How the results depend on the processing

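The counts of genes called in wild-type cells stayed within 1.5 times of their values under every alternative tried. Leaving out 1 library gave 3650 to 4560 higher, 3638 to 4860 lower, 1959 to 2060 2-fold higher and 1275 to 1378 2-fold lower. The count for the difference between genotypes, 238, moved to 158 with a pseudocount of 0.1, 130 with quantile normalization and 362 with robust empirical Bayes, and to between 10 and 1129 without 1 library. The cause was not tested. Of 6499 pairs of a named gene and a setting, 6412 kept direction and call, 64 lost the call and 21 gained it. Under quantile normalization Actb (0.54) and Cs (0.24), not called otherwise, were called in the opposite direction. Another 15 uncalled genes changed sign while uncalled. Of 1760 pairs of a list median and a setting, 1382 moved by no more than 1 standard deviation (SD). The SD was taken over the list's medians in the 2 replicate numbers. Another 364 moved by more than that. Medians of lists changed sign as follows. With a 5 RPKM filter, which leaves fewer genes, they were -0.30 for basic helix-loop-helix genes (0.42 before), 0.10 for visceral and definitive endoderm (-0.12), -1.90 for endothelium and blood (0.89), -4.93 for glia (0.10) and -0.92 for mesoderm (1.39). In the fit of the 4 wild-type libraries they were -0.16 for interferon genes (0.32), 0.04 for visceral endoderm and -0.32 for glia. Without overlapping symbols the interferon median was -0.16, and with quantile normalization that of glia was -0.24. Without 1 library, the median of lipid genes ranged from -0.14 to 0.04 (-0.12 with all) and that of visceral endoderm from -1.11 to 0.64, changing sign without untreated replicate 2 (0.04 and 0.64) or RA replicate 1 (0.02 and 0.60).

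With the replicate number as a block, 4562 genes were called higher and 4746 lower, 2055 and 1352 of them 2-fold, and 199 for the difference. Same-numbered libraries deviated together (r across genes from 0.169, between the wild-type groups, to 0.355 over 6 pairs of groups). With 2 pairs and no label on what the number marks, they were not treated as paired. Depth, only roughly known here, limits genes near 1 RPKM.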
